A study of Mus musculus with 6 samples.

Results

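The integrin and laminin genes of mouse epididymal white adipose tissue (eWAT) were compared between RFP KO-HFD and WT-HFD mice. Integrins are receptors of an α and a β subunit that hold cells to the matrix or to each other. Laminins are trimers of an α, a β and a γ chain that form the basement membrane around each adipocyte and blood vessel. Members were the protein-coding genes named as an integrin subunit or as a laminin chain that had at least 60 counts over the 6 libraries. The names matched 38 of the 40213 genes of the deposited table, and 34 reached that minimum. The other 4, Itga10, Itgb6, Itgb8 and Itgb2l, had fewer counts, and Itgb2l had 0. The 34 members were 8 leukocyte integrins, 14 matrix-binding integrins, the platelet subunit Itga2b and 11 laminin chains.

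The RFP KO-HFD group was 3 male mice lacking RFP (ret finger protein, encoded by Trim27) in the whole body, and the WT-HFD group was 3 male wild-type littermates. All 6 were 8 to 10 weeks old when put on a diet with 60% fat, which they ate for 12 weeks, and 1 mRNA library labelled as eWAT was given per mouse. The part of Trim27 that the allele removes was not given in the sources used here. The labels call the cells adipocytes, but a fat pad also holds macrophages, fibroblasts, vessels and mesothelium. A lower value in bulk tissue can mean fewer cells of a type or less RNA per cell, which cannot be told apart here.

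The total counts were 4870239 to 13924363 in the RFP KO-HFD libraries and 15216306 to 17215047 in the WT-HFD libraries. Trim27 was at 19.4, 4.10 and 4.63 normalised counts (CPM, scaled to library size by the TMM method) in RFP KO-HFD 1, 2 and 3, against 22.7, 40.2 and 29.5 CPM in WT-HFD 1, 2 and 3. All later values by library are in this unit and this order. The library labelled RFP KO-HFD 1 therefore lay close to the lowest WT-HFD library for the targeted gene. It had no count for the adipocyte genes Adipoq and Plin1, and its 6 hepatocyte markers summed to 23796 CPM. They summed to 586 and 1536 CPM in RFP KO-HFD 2 and 3, against 80.8, 134 and 104 CPM in WT-HFD. All 6 were higher in every RFP KO-HFD library than in every WT-HFD library, a pattern that 7.28% of all genes had. Leaving out RFP KO-HFD 1 thus does not remove this difference. WT-HFD 2 stood apart in another way, with 19188 CPM over 7 smooth muscle and pericyte markers (26.5 to 1342 CPM elsewhere) and 945 CPM over 5 epididymis markers (0.164 to 3.29 CPM elsewhere). WT-HFD 1 and 3 were by far the most alike pair within a group. The chi-square per gene between their counts was 10.1, against 136 to 434 for the other pairs. The spread within WT-HFD may therefore be understated, and the cause of this likeness was not tested. The values of RFP KO-HFD 1 thus go against its labels, and whether it is eWAT of an RFP KO mouse is in doubt.

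Of the 34 members, 33 passed the filter on low counts, and Itga2 did not. None passed an adjusted p of 0.05 in edgeR's quasi-likelihood test, in which 0 of 14706 genes (0%) passed, and the lowest adjusted p of a member was 0.599. At an unadjusted p under 0.05, 2 members were lower in RFP KO-HFD (Itgad and Itgb1; 2.7% of all genes tested) and 2 were higher (Itgal and Itga4; 4.05% of all genes), 4 in all (6.75% of all genes in either direction). At the study's criteria, an unadjusted p of at most 0.05 and a log2 fold change of at least 2 in size, Itgad was lower (1.58% of all genes) and Itgal and Itga4 were higher (3.01%). DESeq2 gave an adjusted p under 0.05 for Itgad and Itgb1, with 488 genes called in all (3.32%). It gave no p-value for Itgal, Itgb7 and a laminin chain, and its share is over all 14706 genes, with or without a p-value. Limma-voom with a quality weight per library gave an adjusted p under 0.05 for Itgax, Itgb1, Itgb2 and Lamc1, with 1039 genes called (7.07%). Itgb1 was thus the member called by both of these tools. At an unadjusted p under 0.05, limma-voom had 2 of 33 members (8.36% of all genes) and, with library weights, 10 of 33 (28% of all genes). With both RFP KO-HFD 1 and WT-HFD 2 left out, an alternative chosen after seeing the data, edgeR had 12 of 33 (31.7% of all genes), so that both larger counts lay near the share over all genes.

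The direction differed between the classes. All 11 laminin chains and 11 of the 13 tested matrix-binding integrins had a negative log2 fold change, as did 56% of all genes. Of the 8 leukocyte integrins, 4 were lower and 4 higher. The median log2 fold change was 0.96 over the leukocyte integrins (range -5.16 to 4.15), -0.78 over the matrix-binding integrins (-1.91 to 2.13) and -1.02 over the laminin chains, beside -0.13 over all genes tested. Much of this rested on the library labelled RFP KO-HFD 1. Without it, the medians were -0.61, -0.49 and -0.58, with 4 of 8 leukocyte integrins, 14 of 14 matrix-binding integrins and 9 of 11 laminin chains lower, as were 53.5% of all genes. With both RFP KO-HFD 1 and WT-HFD 2 left out, the medians were -0.75, -0.30 and -0.091, and 6 of 11 laminin chains were lower.

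Markers of other cells of the fat pad did not all move alike. Of the 6 adipocyte markers, 2 were lower and 4 higher (median 0.037). They summed to 181, 16974 and 30628 CPM in RFP KO-HFD and to 15362, 8672 and 14948 CPM in WT-HFD. All 7 mesothelium markers had a negative log2 fold change (median -3.85). For 6 of them every RFP KO-HFD library lay below every WT-HFD library, a pattern that 16% of all genes had. The mesothelium markers summed to 8.09, 90.4 and 14.2 CPM in RFP KO-HFD and to 86.6, 524.5 and 138 CPM in WT-HFD, and Muc16 gave 0 counts in all RFP KO-HFD libraries. Krt19, which overlapped between the groups, made up most of the sums in RFP KO-HFD 2 (83.4 CPM) and WT-HFD 2 (410 CPM). Of the 7 fibroblast and preadipocyte markers, 6 were lower (median -1.62). They summed to 199, 1481 and 492 CPM in RFP KO-HFD and to 3427, 1339 and 3034 CPM in WT-HFD, so WT-HFD 2 lay within the range of RFP KO-HFD. Of the 6 endothelium markers, 3 were lower and 3 higher (median -0.40), with sums of 78.0, 848 and 693 CPM in RFP KO-HFD and 484, 310 and 445 CPM in WT-HFD. The part of these cells in the values of the laminins and matrix-binding integrins was not tested.

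**Figure D1:**
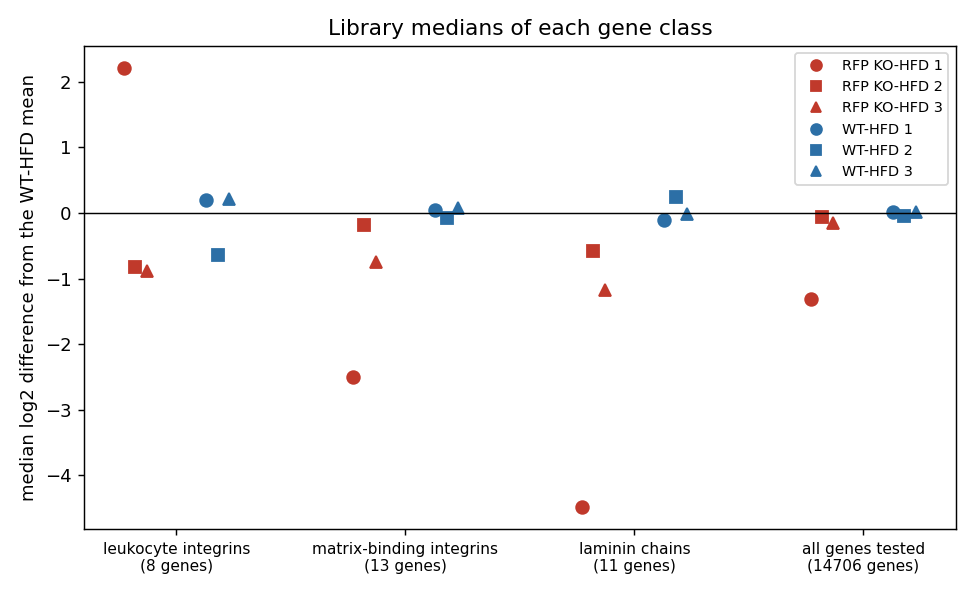
Median, over the tested genes of each class, of the log2 difference between a library and the mean of the WT-HFD libraries (y axis, log2 units). Each point is 1 library. In the library labelled RFP KO-HFD 1 the leukocyte integrins lay at 2.21 and the laminin chains at -4.49, whereas RFP KO-HFD 2 and 3 lay between -1.18 and -0.19 for all 3 classes.

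**Figure D2:**
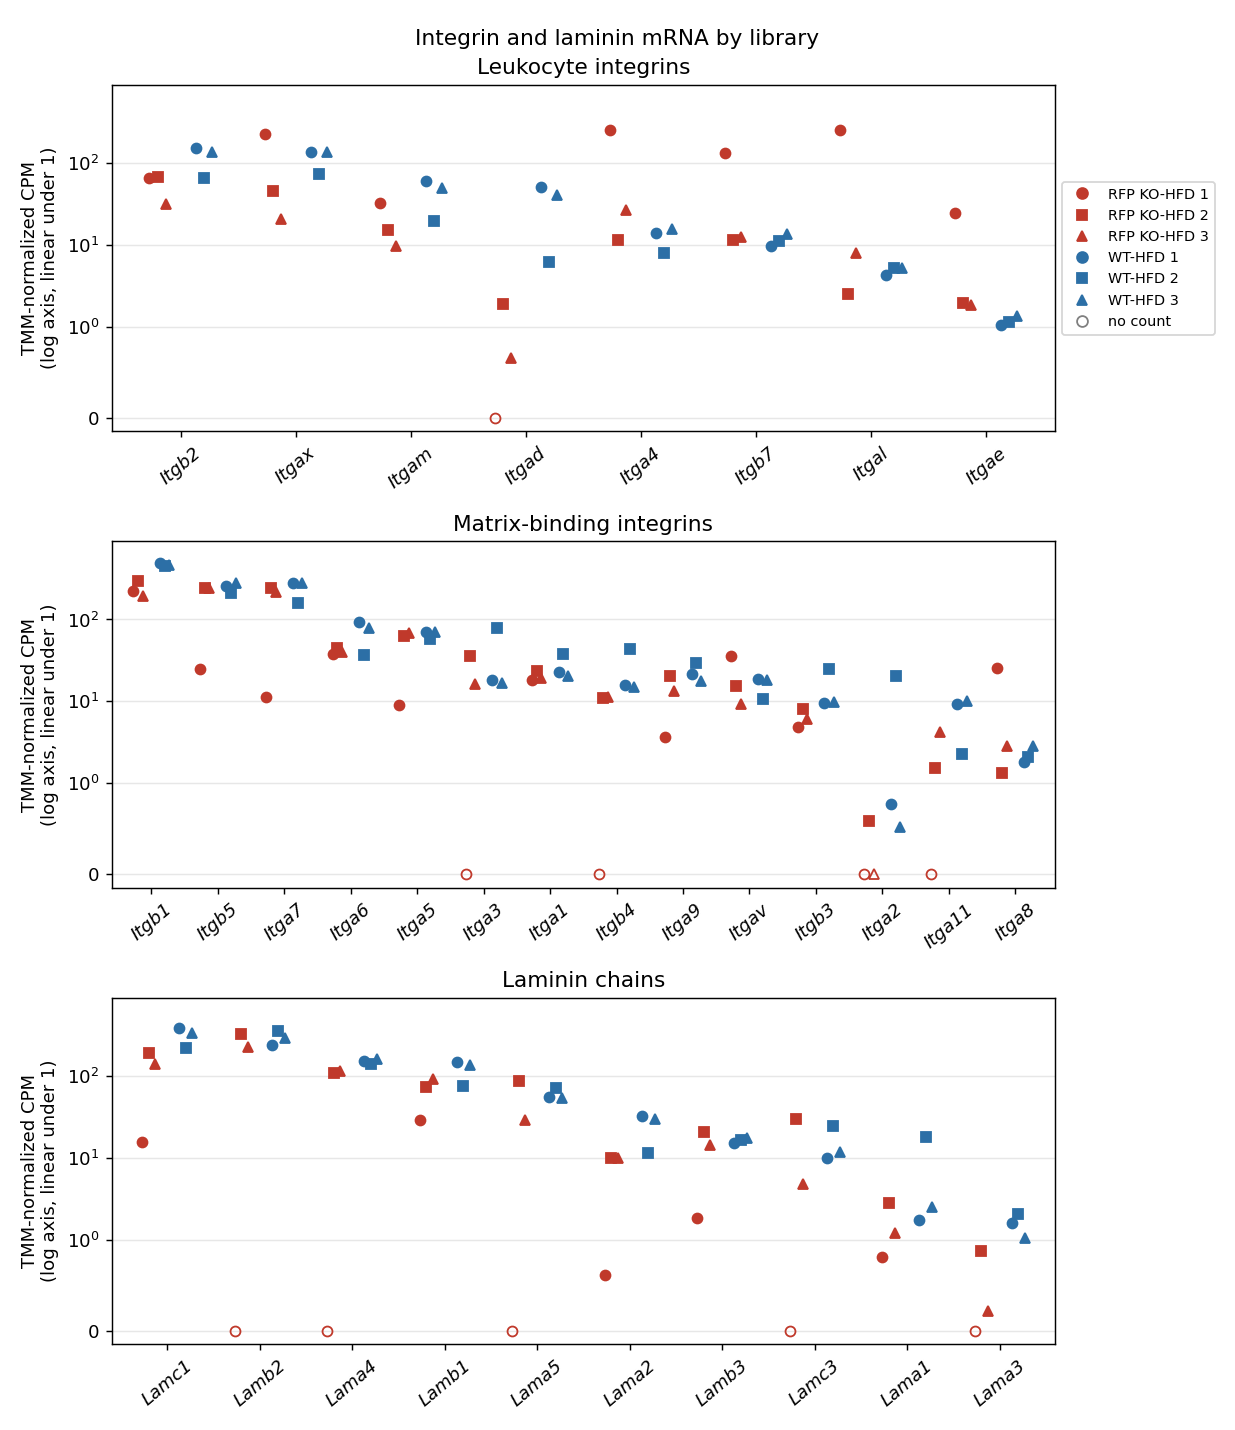
TMM-normalized CPM of leukocyte integrins, matrix-binding integrins and laminin chains by library (y axis, logarithmic above 1 CPM and linear below it), with RFP KO-HFD libraries in red and WT-HFD libraries in blue. Open symbols mark libraries with no count. Itgb1 in RFP KO-HFD lay between 193 and 295 CPM, below the 452 to 493 CPM of WT-HFD, and Itgal, Itga4, Itgae and Itgb7 were high in the library labelled RFP KO-HFD 1 alone.

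The leukocyte integrins include the β2 family, in which Itgb2 (CD18) pairs with Itgal (LFA-1, which binds ICAM), Itgam (Mac-1, a complement receptor), Itgax (CD11c) or Itgad (CD11d). They also include Itga4 and Itgae, which pair with Itgb7 on leukocytes of mucosal tissues; Itga4 also pairs with Itgb1. In the files' coordinates (GRCm39), 3 of the α genes stand in a row on the plus strand of chromosome 7: Itgam at chr7:127661812-127717663, Itgax at chr7:127728697-127749829 and Itgad at chr7:127773105-127822988. Itgal lies on the same strand at chr7:126895404-126934309.

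Itgad was the member of lowest p. CD11d marks tissue macrophages, and its mRNA was at 0, 1.90 and 0.661 CPM in RFP KO-HFD and at 50.6, 6.15 and 41.0 CPM in WT-HFD. The groups did not overlap, although WT-HFD 2 stood far below the other WT-HFD libraries. The log2 fold change was -5.16 ± 1.41 (SE; adjusted p = 0.599). With the library labelled RFP KO-HFD 1 left out it was -4.64 ± 1.13 (adjusted p = 0.112), so its size did not rest on that library. Cox6a2, on the opposite strand, overlaps Itgad and had 108 counts in all.

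Itgam was at 32.3, 15.4 and 9.80 CPM in RFP KO-HFD and at 60.5, 19.6 and 49.5 CPM in WT-HFD. RFP KO-HFD 2 and 3 lay below all WT-HFD libraries, and the library labelled RFP KO-HFD 1 lay among them. The log2 fold change was -1.18 ± 0.64 with all libraries (adjusted p = 0.815) and -1.79 ± 0.54 without RFP KO-HFD 1 (adjusted p = 0.136). The same contrast was seen for Itgax, which is high on macrophages of obese fat and on dendritic cells. It was at 224, 45.3 and 20.5 CPM in RFP KO-HFD and at 138, 73.1 and 137 CPM in WT-HFD, highest in the library labelled RFP KO-HFD 1 and lowest in RFP KO-HFD 2 and 3. Its log2 fold change was accordingly -0.27 ± 0.87 with that library and -1.83 ± 0.47 (adjusted p = 0.116) without it.

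Itgb2, the β subunit they share, was at 65.5, 68.1 and 31.6 CPM in RFP KO-HFD and at 152, 66.1 and 136 CPM in WT-HFD. WT-HFD 2 lay among the RFP KO-HFD libraries, so the groups overlapped. The log2 fold change was -1.10 ± 0.49 (adjusted p = 0.760). With both RFP KO-HFD 1 and WT-HFD 2 left out, the log2 fold changes were -5.09 for Itgad, -2.13 for Itgam, -2.07 for Itgax and -1.54 for Itgb2. Itgad (adjusted p = 0.0402) and Itgam (adjusted p = 0.0464) then passed, among 507 genes called (3.35%), with only 2 libraries left in each group. Those left in WT-HFD were the closely alike WT-HFD 1 and 3, so the spread may be understated in this setting.

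Macrophage markers are set beside these values. The 10 macrophage markers summed to 409, 1457 and 1225 CPM in RFP KO-HFD and to 2759, 1197 and 2797 CPM in WT-HFD, so WT-HFD 2 was as low as RFP KO-HFD 2 and 3. Among them, 8 of 10 had a negative log2 fold change, and Fcgr1 and Mertk gave 0 counts in the library labelled RFP KO-HFD 1. Lyz2, the lysozyme of macrophages, was at 178, 323 and 225 CPM in RFP KO-HFD and at 1025, 358 and 1040 CPM in WT-HFD. C1qa, a complement subunit made by resident macrophages, was at 61.1, 313 and 384 CPM in RFP KO-HFD and at 323, 217 and 393 CPM in WT-HFD, and C1qb at 3.44, 317 and 275 CPM against 366, 195 and 413 CPM. The part of macrophage number in the values of these integrins was not tested.

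The promoters of Itgam and Itgax are printed because their values moved together over RFP KO-HFD 2 and 3, and that of Itgb1 for the matrix receptor that was called most often. Each run holds the 300 bases around a RefSeq start (GRCm38.p6, plus strand), with GAGGAA, the core letters of a PU.1 motif, in capitals on either strand (TTCCTC on the other). PU.1 is a transcription factor of myeloid cells. A promoter was matched for 20 of the 34 members.
Itgam, chr7:128062390-128062689: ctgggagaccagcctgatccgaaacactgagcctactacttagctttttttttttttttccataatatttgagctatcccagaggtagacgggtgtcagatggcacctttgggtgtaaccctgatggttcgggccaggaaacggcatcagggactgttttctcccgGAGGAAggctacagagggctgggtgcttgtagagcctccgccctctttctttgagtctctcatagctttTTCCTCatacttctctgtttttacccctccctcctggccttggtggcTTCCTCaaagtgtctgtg
Itgax, chr7:128129300-128129599: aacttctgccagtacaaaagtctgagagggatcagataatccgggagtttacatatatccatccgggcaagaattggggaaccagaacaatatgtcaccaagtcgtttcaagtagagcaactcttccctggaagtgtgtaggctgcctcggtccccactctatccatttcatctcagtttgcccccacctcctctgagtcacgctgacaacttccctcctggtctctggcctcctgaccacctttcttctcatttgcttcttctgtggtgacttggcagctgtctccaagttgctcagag
Itgb1, chr8:128685404-128685703: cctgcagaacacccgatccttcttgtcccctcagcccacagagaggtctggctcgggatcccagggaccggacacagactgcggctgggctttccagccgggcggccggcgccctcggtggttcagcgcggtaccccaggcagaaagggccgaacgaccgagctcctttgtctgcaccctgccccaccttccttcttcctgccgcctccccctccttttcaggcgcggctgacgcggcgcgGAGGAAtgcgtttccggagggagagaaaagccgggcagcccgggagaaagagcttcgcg
The letters stood 3 times in the window of Itgam, 0 times in that of Itgax and 1 time in that of Itgb1. Of 32851 promoters of the same length, 28.3% held them. They stood in the windows of 2 of 4 leukocyte integrins, 5 of 10 matrix-binding integrins and 5 of 5 laminin chains with a promoter, so the letters were not confined to the leukocyte genes. A match is a description of these windows and not a site.

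The other leukocyte integrins had another pattern. Itgal was at 253, 2.49 and 8.04 CPM in RFP KO-HFD and at 4.32, 5.29 and 5.22 CPM in WT-HFD. Itga4, the α subunit of VLA-4 and of the gut-homing receptor, was at 255, 11.6 and 26.5 CPM in RFP KO-HFD and at 14.01, 7.97 and 15.9 CPM in WT-HFD. Both owed their place at the study's criteria to 1 library. Once the library labelled RFP KO-HFD 1 was left out, Itgal had a log2 fold change of 0.068 ± 0.56, against 4.15 ± 1.68 with it (adjusted p = 0.723). That of Itga4 was 0.58 ± 0.46 without it, against 2.95 ± 1.18 with it (adjusted p = 0.717).

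Itgb7, the β partner of Itga4 and Itgae, was at 133, 11.4 and 12.7 CPM in RFP KO-HFD and at 9.74, 11.2 and 13.6 CPM in WT-HFD. Its log2 fold change was 2.18 ± 1.04 with the library labelled RFP KO-HFD 1 and 0.047 ± 0.26 without it. Itgae (CD103, which binds E-cadherin) was the only member with every RFP KO-HFD library above every WT-HFD library, a pattern that 7.28% of all genes had. It was at 24.5, 1.97 and 1.87 CPM in RFP KO-HFD and at 1.04, 1.14 and 1.36 CPM in WT-HFD. RFP KO-HFD 2 and 3 held 27 and 17 counts of it, beside 19 to 26 counts in WT-HFD. Its log2 fold change was 2.98 ± 1.30 with all libraries (adjusted p = 0.760) and 0.69 ± 0.56 (adjusted p = 0.480) without RFP KO-HFD 1. Haspin lies on the opposite strand of Itgae and had 118 counts, and the use of strand in counting was not stated.

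Markers of other leukocytes stood beside this pattern. The 6 dendritic cell markers summed to 783, 31.7 and 74.0 CPM in RFP KO-HFD and to 17.9, 20.1 and 20.1 CPM in WT-HFD. Flt3, the growth factor receptor of dendritic cells, was at 232, 5.70 and 24.9 CPM in RFP KO-HFD and at 2.63, 2.79 and 1.98 CPM in WT-HFD. Xcr1, the chemokine receptor of cross-presenting dendritic cells, was at 316, 6.14 and 17.8 CPM in RFP KO-HFD and at 1.42, 2.62 and 2.25 CPM in WT-HFD. Zbtb46, a transcription factor of these cells, was at 130, 8.85 and 16.96 CPM against 9.58, 6.72 and 10.4 CPM, whereas Cd209a gave 0 counts in the library labelled RFP KO-HFD 1. The 10 T, NK and B cell markers summed to 5.26, 24.9 and 5.29 CPM in RFP KO-HFD and to 10.4, 35.7 and 12.9 CPM in WT-HFD, and 9 of the 10 had no count in RFP KO-HFD 1. The exception was the B cell gene Ms4a1, named after its values were seen, which was at 5.26, 0.658 and 0 CPM in RFP KO-HFD and at 0.383, 0.626 and 0 CPM in WT-HFD. The 8 neutrophil markers summed to 271, 40.7 and 47.4 CPM in RFP KO-HFD and to 29.8, 32.5 and 35.1 CPM in WT-HFD. The sum in RFP KO-HFD 1 came mainly from S100a9 (135 CPM) and Ngp (116 CPM). S100a8 (15.97 CPM) lay within the range of WT-HFD there, and Csf3r and Cxcr2 gave 0 counts. The 5 pan-leukocyte markers summed to 1513.5, 496 and 356 CPM in RFP KO-HFD and to 619, 1479 and 638 CPM in WT-HFD. Cd52 (1085 CPM) made up most of the sum in WT-HFD 2. Ptprc and Cd53, named after their values were seen, were at 252 and 41.4 CPM in RFP KO-HFD 1. Elsewhere they were at 14.5 to 35.5 CPM and at 11.1 to 45.7 CPM. Of 6 mast cell markers, 5 had no count in RFP KO-HFD 1, but Kit was at 277 CPM, against 8.77 to 13.3 CPM elsewhere. Thus Itgal, Itga4, Itgae and Itgb7 were high in the library in which most dendritic cell markers, S100a9, Ngp, Ptprc and Kit were high. In it Cd3d, Cd79a and Cd79b had no count, and the neutrophil list did not rise as a whole. The part of these cells in the values was not tested.

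The library labelled RFP KO-HFD 1 was the highest of the 6 for 5 of 8 leukocyte integrins and for 7 of 33 tested members, as it was for 25.4% of all genes. The other 2 of the 7 were Itgav and Itga8. Ratios of subunits within a library do not depend on how it was scaled. Itgal to Itgam stood at 7.80, 0.164 and 0.821 in RFP KO-HFD and at 0.0719, 0.271 and 0.106 in WT-HFD, and Itgax to Itgam at 6.91, 2.94 and 2.08 against 2.29, 3.72 and 2.76. For Itgal to Itgam the mean log2 ratio was 0.023 in RFP KO-HFD and -2.97 in WT-HFD, a difference of 2.997 that was 1.53 without RFP KO-HFD 1. The groups overlapped in each of the 9 ratios examined, with two-sided exact permutation p from 0.2 to 1.0 (adjusted p = 1.0 for each), and 3 against 3 libraries cannot give a p below 0.1.

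**Figure D3:**
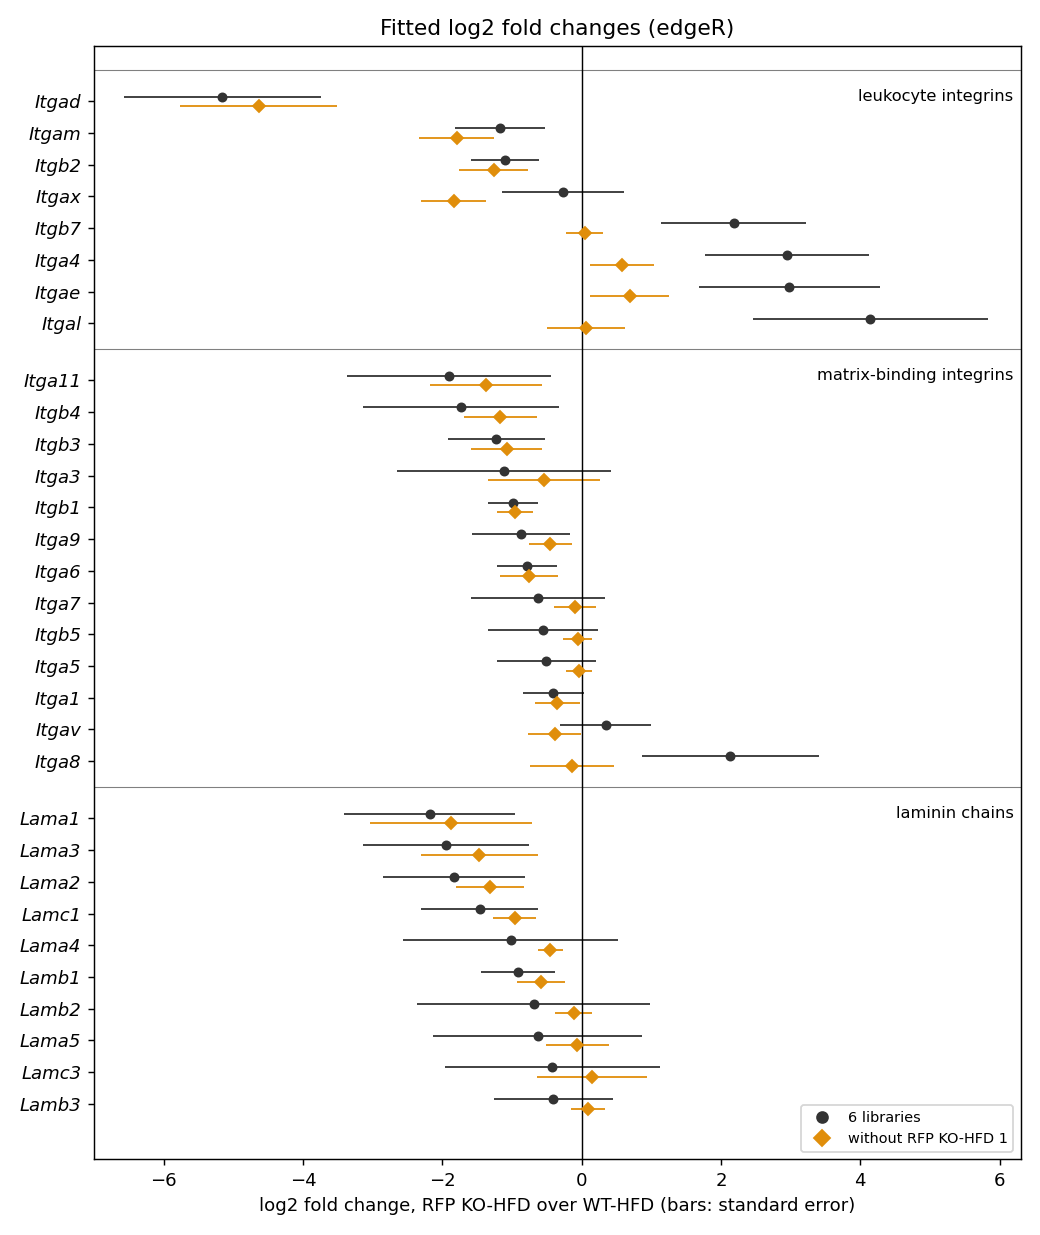
Log2 fold change of tested members, RFP KO-HFD over WT-HFD (x axis, with SE bars, edgeR), with all 6 libraries (black) and with the library labelled RFP KO-HFD 1 removed (orange). Itgal, Itga4, Itgae and Itgb7 lay between 2.18 and 4.15 with it and between 0.047 and 0.69 without it, while Itgb1 lay at -0.99 and -0.96.

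Among the matrix-binding integrins, Itgb1 was the only one at an unadjusted p under 0.05 in edgeR or DESeq2 with all libraries, whereas limma-voom with library weights put Itgb1, Itga6 and Itga11 under it (15.3% of all genes were lower at that level). The standard error of Itgb1, derived from the edgeR test statistic, was the smallest of the 33 tested members. Itgb1 encodes β1, the partner of the collagen-binding, laminin-binding and fibronectin-binding α subunits, and lies on the plus strand at chr8:129412135-129460060. Its mRNA was at 221, 295 and 193 CPM in RFP KO-HFD and at 493, 452 and 459 CPM in WT-HFD. It averaged 236 ± 52.3 CPM in RFP KO-HFD and 468 ± 22.1 CPM in WT-HFD (SD, n = 3 each), and the groups did not overlap. The log2 fold change was -0.99 ± 0.36 in edgeR (adjusted p = 0.671), -0.95 in DESeq2 (adjusted p = 0.0427) and -1.003 with library weights (adjusted p = 0.0313). Without the library labelled RFP KO-HFD 1 it was -0.96 ± 0.25 (adjusted p = 0.119). Itgb5 differed from it. This gene, a β partner of αv, was at 24.9, 242 and 240 CPM in RFP KO-HFD and at 255, 209 and 281 CPM in WT-HFD. Only the library labelled RFP KO-HFD 1 was low, and the log2 fold change of -0.55 ± 0.79 became -0.058 ± 0.21 without it.

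Itgb5 to Itgb1 accordingly stood at 0.113, 0.820 and 1.24 in RFP KO-HFD and at 0.517, 0.461 and 0.613 in WT-HFD. RFP KO-HFD 2 and 3 had the highest ratios of the 6 libraries, and the library labelled RFP KO-HFD 1 the lowest. Itgb3, which pairs with αv and, on platelets, with Itga2b, was at 4.85, 7.97 and 6.06 CPM in RFP KO-HFD and at 9.52, 24.8 and 9.92 CPM in WT-HFD, with a log2 fold change of -1.22 ± 0.69 (adjusted p = 0.818) that was -0.64 ± 0.86 without WT-HFD 2. All RFP KO-HFD libraries were below all WT-HFD libraries. This held for 8 members in all (Itgad, Itgb1, Itgb3, Itgb4, Lama2, Lama3, Lama4 and Lamc1) and for 16% of all genes.

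Of the laminin receptors, Itga7, whose protein is best known from muscle, was at 11.3, 242 and 214 CPM in RFP KO-HFD and at 280, 161 and 278 CPM in WT-HFD. Apart from the library labelled RFP KO-HFD 1 these values overlapped, and the log2 fold change was -0.62 ± 0.96 with it and -0.091 ± 0.30 without it. Itga6 was at 38.0, 44.5 and 39.6 CPM in RFP KO-HFD and at 94.3, 36.8 and 79.1 CPM in WT-HFD, where WT-HFD 2 alone was as low as RFP KO-HFD. It encodes the α6 subunit of endothelium and epithelium. Its log2 fold change was -0.78 ± 0.43 (adjusted p = 0.815). Mettl7b, with 2380 counts, overlaps Itga7 on the opposite strand.

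Itga3 and Itgb4, subunits of the laminin receptors of epithelium, gave 0 counts in the library labelled RFP KO-HFD 1. Itga3 was at 0, 36.0 and 16.4 CPM in RFP KO-HFD and at 18.1, 79.1 and 16.7 CPM in WT-HFD, and Itgb4 at 0, 11.04 and 11.2 CPM against 15.98, 43.4 and 15.1 CPM. Both were highest in WT-HFD 2. For Itga3 the log2 fold change was -1.11 ± 1.54 with all libraries, -0.54 ± 0.81 without RFP KO-HFD 1 and -0.0028 ± 1.84 without WT-HFD 2. That of Itgb4 was -1.73 ± 1.40, -1.17 ± 0.53 and -1.07 ± 1.73 under these settings. Galk1, with 2800 counts, lies on the opposite strand of Itgb4.

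Itga5, the fibronectin receptor, was at 8.90, 62.9 and 67.5 CPM in RFP KO-HFD and at 70.5, 57.8 and 69.6 CPM in WT-HFD, again low only in the library labelled RFP KO-HFD 1. Its log2 fold change was -0.50 ± 0.71 with it and -0.033 ± 0.19 without it. Itgav, whose dimers bind vitronectin and other RGD ligands, was at 36.2, 15.4 and 9.25 CPM in RFP KO-HFD and at 18.8, 10.7 and 18.2 CPM in WT-HFD, with a log2 fold change of 0.35 ± 0.65 that was -0.39 without that library. Itga8, which binds nephronectin, was the other matrix-binding member with a positive value. It was at 25.9, 1.32 and 2.86 CPM in RFP KO-HFD and at 1.81, 2.11 and 2.87 CPM in WT-HFD, and its log2 fold change of 2.13 ± 1.27 was -0.14 without that library. Itga9, a receptor for tenascin and other ligands, was at 3.64, 20.5 and 13.4 CPM in RFP KO-HFD and at 21.5, 29.4 and 17.96 CPM in WT-HFD (log2 fold change -0.87 ± 0.70, and -0.45 ± 0.31 without RFP KO-HFD 1).

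Itga1, a receptor for collagen IV, was at 18.4, 23.8 and 19.3 CPM in RFP KO-HFD and at 22.7, 38.1 and 20.6 CPM in WT-HFD, a log2 fold change of -0.41 ± 0.44 that was -0.10 ± 0.51 without WT-HFD 2. Pelo lies within Itga1 on the same strand and had 1753 counts, so the reads of the pair may be shared. Itga11, a fibrillar collagen receptor of fibroblasts, had a log2 fold change of -1.91 ± 1.46, with 0, 21 and 38 counts in RFP KO-HFD and 171, 40 and 194 counts in WT-HFD. Itga2, a collagen receptor of epithelium and platelets, had 362 of its 394 counts in WT-HFD 2. Itga2b, the platelet subunit, was at 0, 5.41 and 4.41 CPM in RFP KO-HFD and at 2.08, 17.1 and 2.04 CPM in WT-HFD. Its highest value was in WT-HFD 2, in which the 5 platelet markers summed to 20.3 CPM, less than in WT-HFD 1 (45.8 CPM) and WT-HFD 3 (49.6 CPM). These sums were almost all Pf4, at 19.4, 45.0 and 48.4 CPM in WT-HFD 2, 1 and 3. The other platelet markers reached at most 0.991 CPM in any library, so the list says little about platelets here.

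Per kilobase of transcript, the order of the integrins in WT-HFD was led by Itgb1 (123 CPM per kb on average), Itgb5 (75.6) and Itga7 (59.6), followed by Itgb2 (39.8) and Itgax (28.7). The same 3 led over RFP KO-HFD 2 and 3, where Itgb5 averaged 73.4, Itgb1 63.9 and Itga7 56.6 CPM per kb. Itgb1 and Itgb5 thus lay close together in those libraries. In the library labelled RFP KO-HFD 1, by contrast, Itgb1 (58.0), Itgax (55.4), Itgb7 (49.7) and Itgal (48.4) led on this scale, and Itgb5 was at 7.58 and Itga7 at 2.82 CPM per kb.

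All 11 laminin chains had a negative log2 fold change, and 0 of them had an unadjusted p under 0.05 in edgeR or DESeq2 with all 6 libraries. DESeq2 did not give every chain a p-value. With library weights 9 of 11 were lower and the median was -0.50, and it was -0.54 without WT-HFD 2. Lamc1, the γ chain of most laminins, was at 15.4, 188 and 138 CPM in RFP KO-HFD and at 381, 222 and 337 CPM in WT-HFD. No RFP KO-HFD library reached a WT-HFD library. The log2 fold change was -1.46 ± 0.84 (adjusted p = 0.823) with all libraries and -0.96 ± 0.31 (adjusted p = 0.149) with the library labelled RFP KO-HFD 1 left out. Limma-voom with library weights gave -1.19 (adjusted p = 0.0453). Lamc1 lies on the minus strand at chr1:153094668-153208532.

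Among the α chains, Lama4, of vessels and adipocytes, was at 0, 107 and 114 CPM in RFP KO-HFD and at 151, 138 and 159 CPM in WT-HFD. The library labelled RFP KO-HFD 1 had no count, whereas the other 5 held 1036 to 3047 counts each. A count of 0 in that library allows a level of up to 0.607 CPM, for counting error only. RFP KO-HFD 2 and 3 were also below every WT-HFD library, and on 5 libraries, without RFP KO-HFD 1, the value was a log2 fold change of -0.45 ± 0.18 (adjusted p = 0.195), against -1.02 ± 1.55 with it. Lama2, the chain of muscle and mesenchymal basement membranes, was at 0.607, 9.80 and 10.02 CPM in RFP KO-HFD and at 32.2, 11.3 and 29.6 CPM in WT-HFD. WT-HFD 2 lay near the RFP KO-HFD libraries. Its log2 fold change was -1.83 ± 1.02 (adjusted p = 0.815), and -1.65 (adjusted p = 0.0402) with both RFP KO-HFD 1 and WT-HFD 2 left out. Lama2 lies on chromosome 10 at chr10:26857281-27493021 and Lama4 at chr10:38841511-38986184.

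Lama5, of mature vessels and epithelium, was at 0, 85.9 and 29.2 CPM in RFP KO-HFD and at 54.9, 70.6 and 53.1 CPM in WT-HFD. RFP KO-HFD 2 was the highest of the 6 libraries, so the groups overlapped. Lama1 had 4, 38 and 11 counts in RFP KO-HFD and 32, 314 and 48 counts in WT-HFD, and Lama3 had 0, 12 and 2 counts in RFP KO-HFD and 29, 36 and 20 counts in WT-HFD. Both were highest in WT-HFD 2.

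Of the β chains, Lamb1 was at 28.5, 73.1 and 90.4 CPM in RFP KO-HFD and at 150, 75.2 and 137 CPM in WT-HFD, a log2 fold change of -0.91 ± 0.53 that was -0.58 ± 0.34 without RFP KO-HFD 1. WT-HFD 2 was the only WT-HFD library within the range of RFP KO-HFD. Lamb2, which replaces Lamb1 in mature basement membranes, was at 0, 321 and 224 CPM in RFP KO-HFD and at 235, 352 and 289 CPM in WT-HFD. With the library labelled RFP KO-HFD 1 its log2 fold change was -0.69 ± 1.67, and without it -0.12 ± 0.27. Lamb3, a chain of epithelium, was at 1.82, 20.4 and 14.4 CPM in RFP KO-HFD and at 15.05, 16.4 and 17.2 CPM in WT-HFD. RFP KO-HFD 2 had the highest Lamb3 level of the 6. Lamc3 was at 0, 29.5 and 4.74 CPM in RFP KO-HFD and at 9.96, 24.6 and 11.6 CPM in WT-HFD.

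**Figure D4:**
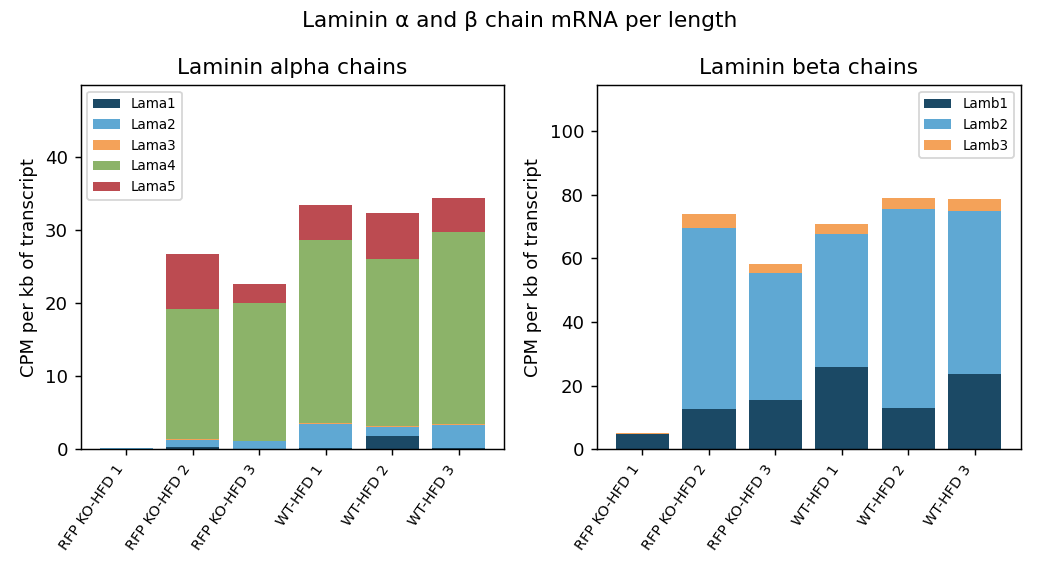
Laminin α and β chain mRNA in each library, in CPM per kilobase of transcript (y axis), stacked by chain. The α chains of RFP KO-HFD summed to 0.148, 26.7 and 22.6 CPM per kb, below the 32.3 to 34.4 CPM per kb of WT-HFD, and those of the library labelled RFP KO-HFD 1 are too low to see.

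On the scale of CPM per kb, the same chains led in 5 of the libraries. Lama4 made up 66.5% and 83.4% of the α chains in RFP KO-HFD 2 and 3, and 74.6%, 70.8% and 76.5% in WT-HFD. Lamb2 made up 77.2% and 68.1% of the β chains in RFP KO-HFD 2 and 3, and 59.1%, 79.3% and 65.3% in WT-HFD. Lama4 and Lamb2 were thus the most abundant of their kind in these 5 libraries. The α chains summed to 0.148, 26.7 and 22.6 CPM per kb in RFP KO-HFD and to 33.5, 32.3 and 34.4 CPM per kb in WT-HFD, without overlap. The β chains summed to 5.30, 73.8 and 58.3 CPM per kb in RFP KO-HFD and to 70.8, 78.9 and 78.5 CPM per kb in WT-HFD, and RFP KO-HFD 2 lay among the WT-HFD libraries.

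The library labelled RFP KO-HFD 1 had no count for 12 of the 34 members, 11 of them among the 33 tested, as it had none for 34.1% of all genes tested. Of the 17 members that reached 10 CPM in all other libraries, 5 gave 0 counts here (Itga3, Itgb4, Lama4, Lama5 and Lamb2), against 13.4% of all such genes. WT-HFD 2 was the highest library for 10 tested members (16.8% of all genes). Among these were Itga3, Itga9, Itgb3, Itgb4, Lama1 and Lamb2. In that library Krt8, Krt18 and Cdh1, the epithelial markers of highest level, were at 199, 292 and 99.3 CPM, against 32.1 to 34.4, 24.2 to 28.7 and 4.86 to 7.77 CPM in the other WT-HFD libraries. RFP KO-HFD 2 had 178, 292 and 12.3 CPM of these 3 genes. The part of epithelium and smooth muscle in these values was not tested.

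RFP KO-HFD 2 and 3 together lay below every WT-HFD library for 10 members (Itgad, Itgam, Itgax, Itgb1, Itgb3, Itgb4, Lama2, Lama3, Lama4 and Lamc1), beside 24.7% of all genes, and above every one for Itgae alone, beside 21.5% of all genes. Without the library labelled RFP KO-HFD 1, 8 of 34 members had an unadjusted p under 0.05 and all 8 were lower, beside 12.6% of all genes lower and 12.1% higher. They were Itgad, Itgam, Itgax, Itgb2, Itgb1, Lama2, Lama4 and Lamc1. None had an adjusted p under 0.05, and the lowest was 0.112.

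The partners of the members were examined as well. All 15 partners of laminin in the basement membrane had a negative log2 fold change (median -0.81), as did 56% of all genes. At an unadjusted p under 0.05, 1 was lower in edgeR (2.7% of all genes), and 0 passed an adjusted p of 0.05 in edgeR or DESeq2. With library weights Nid2 passed, where 7.07% of all genes did. Without the library labelled RFP KO-HFD 1, 12 of the 15 were lower, with a median of -0.31, beside 53.5% of all genes. Hspg2 (perlecan) was at 21.03, 1212 and 1107 CPM in RFP KO-HFD and at 1537, 1004 and 1577 CPM in WT-HFD. Col4a2, a chain of collagen IV, was at 18.8, 1351 and 980 CPM in RFP KO-HFD and at 1707, 969 and 1609 CPM in WT-HFD. Sparc, which binds collagen IV, was at 66.5, 6241 and 3750 CPM in RFP KO-HFD and at 5502, 3284 and 5239 CPM in WT-HFD. All 3 were low in the library labelled RFP KO-HFD 1 and overlapped in the others.

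Of the 14 tested matrix ligands of the other integrins, 11 were lower (median log2 fold change -1.09, and -0.59 with 10 lower when RFP KO-HFD 1 was left out), beside 56% of all genes. At an unadjusted p under 0.05 in edgeR, 1 was lower (2.7% of all genes) and 1 higher (4.05%), and 0 passed the adjusted threshold in edgeR or DESeq2. With library weights, Fn1 and Postn passed, where 7.07% of all genes did. Fn1 (fibronectin), the ligand of Itga5 with Itgb1, was at 193, 107 and 99.2 CPM in RFP KO-HFD and at 468, 236 and 451 CPM in WT-HFD, without overlap, a log2 fold change of -1.53 ± 0.47 (adjusted p = 0.599). Mfge8, a ligand of αv integrins, was at 23.5, 1226 and 1069 CPM in RFP KO-HFD and at 1859, 1480 and 1880 CPM in WT-HFD. Thbs1 (thrombospondin 1) was at 6.67, 59.8 and 75.6 CPM in RFP KO-HFD and at 209, 51.6 and 193 CPM in WT-HFD, where WT-HFD 2 lay below RFP KO-HFD 2 and 3. The member that was higher at an unadjusted p under 0.05 was Vtn (vitronectin), named after its values were seen and made mainly by liver, at 439, 21.4 and 45.7 CPM against 19.7, 14.1 and 24.1 CPM.

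Of 7 tested ligands of leukocyte integrins, 4 were lower and 3 higher (median log2 fold change -0.16), beside 56% of all genes lower. At an unadjusted p under 0.05 there were 0 in edgeR, 1 higher in DESeq2 and 1 lower with library weights. At that level 926 of 14706 genes were higher in DESeq2, and 15.3% of all genes were lower with weights. The adjusted threshold was passed by 0 in all 3. Icam1, the ligand of Itgal and Itgam with Itgb2, was at 78.6, 24.5 and 58.6 CPM in RFP KO-HFD and at 24.4, 20.6 and 28.6 CPM in WT-HFD (log2 fold change 1.13 ± 0.50, adjusted p = 0.760, and 0.74 ± 0.39 without RFP KO-HFD 1). F11r, a junction protein that binds Itgal, was at 47.5, 67.4 and 42.5 CPM in RFP KO-HFD and at 43.9, 88.6 and 43.7 CPM in WT-HFD. Cdh1 (E-cadherin), the ligand of Itgae, gave 0 counts in the library labelled RFP KO-HFD 1, where Itgae was highest, and was at 12.3 and 1.98 CPM in RFP KO-HFD 2 and 3 and at 7.77, 99.3 and 4.86 CPM in WT-HFD.

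Inside the cell, 15 of 22 integrin adaptors found in all cells were lower (median log2 fold change -0.48, and -0.27 when RFP KO-HFD 1 was left out), beside 56% of all genes. At an unadjusted p under 0.05, 2 were lower in edgeR (2.7% of all genes), and 0 passed the adjusted threshold in edgeR or DESeq2. With library weights, Kank2, Tns3 and Vcl passed, all lower, where 7.07% of all genes passed. Tln1 (talin), which switches integrins on, was at 385, 495 and 482 CPM in RFP KO-HFD and at 604, 527 and 606 CPM in WT-HFD, without overlap, although the log2 fold change was -0.35 ± 0.35. Tns1 (tensin 1) was at 72.8, 1984 and 2448 CPM in RFP KO-HFD and at 1671, 2675 and 1664 CPM in WT-HFD. Flna (filamin A), which links integrins to actin, was at 463, 569 and 563 CPM in RFP KO-HFD and at 916, 3500 and 971 CPM in WT-HFD, without overlap and highest in WT-HFD 2 (log2 fold change -1.76 ± 0.66, adjusted p = 0.690, and -0.85 ± 0.45 without that library).

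Of the 11 adaptors listed for leukocytes, 8 were lower and 3 higher, beside 56% of all genes lower. The median log2 fold change was -0.15, and -0.52 when RFP KO-HFD 1 was left out. Among the lower was Tgfb1i1, named after its values were seen. It was at 0, 36.7 and 47.1 CPM in RFP KO-HFD and at 26.3, 146 and 29.0 CPM in WT-HFD. Like the sum of the smooth muscle and pericyte markers, Tgfb1i1 was highest in WT-HFD 2. At an unadjusted p under 0.05, 1 of the 11 was higher in edgeR (4.05% of all genes) and 1 in DESeq2 (926 of 14706 genes). With library weights 4 were lower (15.3% of all genes) and 1 higher (1862 of 14706 genes) at that level, with 0 past the adjusted threshold in all 3. Skap2 was at 124, 25.1 and 29.0 CPM in RFP KO-HFD and at 50.0, 25.0 and 40.2 CPM in WT-HFD, and Coro1a, an actin-binding protein of leukocytes, at 352, 84.1 and 55.5 CPM against 74.4, 72.1 and 87.1 CPM. Both were highest in the library labelled RFP KO-HFD 1. Ptk2b, a kinase of the focal adhesion kinase family, was lowest there, at 22.2 CPM, beside 91.4 and 139 CPM in RFP KO-HFD 2 and 3 and 109, 147 and 115 CPM in WT-HFD. Fermt3, the kindlin of blood cells, to Fermt2, that of other cells, stood at 805, 0.721 and 0.325 in RFP KO-HFD and at 0.805, 0.394 and 0.778 in WT-HFD, computed with 0.5 added to each count because Fermt2 gave 0 counts in the library labelled RFP KO-HFD 1. The ratios of the other 5 libraries overlapped.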

How the data were processed

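The deposited table gives whole-number counts that the authors made per gene and library, and these counts were tested. It also holds the log2 of TMM-normalized CPM plus 1 and log2 group means, and the authors' own comparison as a fold (a ratio), p-values and q-values; none of these deposited columns was used. Per the labels and the paper's methods, Trizol was used for RNA and the CORALL kit, on poly(A)-selected RNA, for libraries (the labels also name removal of ribosomal RNA), and reads were trimmed with Fastp (Trimmomatic in the submitters' processing notes), aligned with STAR and quantified with Salmon. Versions were not given in the sources used here. The notes name mm10 and the information sheet of the deposited workbook GRCm39, to which the coordinates of genes belong. The diet lasted 12 weeks by the sequencing methods, and 10 or 12 by the methods on animals.

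Genes were kept with filterByExpr (min.count 10, min.total.count 15) and fitted with glmQLFit and glmQLFTest (robust) in edgeR 4.0.16 and R 4.3.3 after TMM normalization, with no term but genotype and adjustment by Benjamini and Hochberg over all 14706 genes tested. Alternatives were limma 3.58.1 (voom, with or without library weights), DESeq2 1.42.0, RLE and upper-quartile factors, library totals, other filters, a block for the replicate number and leaving out each library. Leaving out 2 libraries together and testing protein-coding nuclear genes alone were chosen after seeing the data. The code was tested on simulated data. Ratios of subunits used counts plus 0.5 and a two-sided exact permutation test over libraries. Levels per kilobase used the longest protein-coding transcript in GENCODE M21. Floors (3 counts) cover counting error only. Values after ± are SE for log2 fold changes and SD for CPM, and both include variation between libraries. The edgeR test gives no SE, so it was derived as the size of the log2 fold change over the square root of the F statistic. The p-values of the fits weigh the difference between groups against the spread between libraries, among them the doubtful RFP KO-HFD 1.

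The members and the gene lists were chosen with earlier results of these data known. Members with a mean of at least 5 CPM over the 6 libraries were given by library and the others by counts or range, with the 3 measured genes of highest mean of each partner or marker list a result touched. Promoter sequences are RefSeq's (GRCm38.p6). The values of 1 member are not reported here.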

Additional observations from a re-analysis of the deposited data

How the results depend on the processing

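With RLE or upper-quartile factors, library totals, no filter on low counts or protein-coding nuclear genes alone, each of the 29 members compared (those of at least 5 CPM on average, so without Itga11, Lama1 and Lama3) kept its direction and its side of the threshold. In these settings 0 genes of the whole table were called, so the side of the threshold could not change. Over all alternatives, 450 values of single members kept both, 9 newly passed and 24 reversed. The 0 genes called by edgeR over the whole table became 488 with DESeq2, 1039 with limma-voom and library weights and 507 with both RFP KO-HFD 1 and WT-HFD 2 left out, and 0 to 2 with 1 library left out. The 4 members at an unadjusted p under 0.05 became 2 with limma-voom (8.36% of all genes), 10 of 33 with library weights (28% of all genes), 12 of 33 with both libraries left out (31.7% of all genes) and 1 to 8 with 1 library left out. The 8 were without RFP KO-HFD 1, where 12.6% of all genes were lower and 12.1% higher at that level. Without WT-HFD 2 there were 3, where 299 of 15209 genes were lower and 351 higher. Shares for the other libraries left out were not counted. The median log2 fold change of the leukocyte integrins (0.96) was -0.30 with limma-voom, -0.81 with library weights, -0.75 with both libraries left out and -0.61 to 1.40 with 1 library left out. With library weights and with both libraries left out, the medians were -0.36 and -0.30 for the matrix-binding integrins and -0.50 and -0.091 for the laminin chains.

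The direction of single members reversed as follows. With limma-voom, Itgav was at -0.061. With library weights, Itga2b was at 1.06, Itga3 at 0.41, Itga8 at -0.26, Itgal at -0.065, Itgav at -0.54, Lamb3 at 0.069 and Lamc3 at 0.12. Without RFP KO-HFD 1, Itga8 was at -0.14, Itgav at -0.39, Lamb3 at 0.089 and Lamc3 at 0.15. Without WT-HFD 2, Itga2b was at 0.66 and Lamc3 at 0.074. Itgax reversed when either RFP KO-HFD 2 (0.074) or RFP KO-HFD 3 (0.19) was left out. With 1 library left out, the ranges were -1.60 to 0.66 for Itga2b, -0.14 to 2.66 for Itga8, -0.39 to 0.67 for Itgav, -1.83 to 0.19 for Itgax, -0.94 to 0.089 for Lamb3 and -2.62 to 0.15 for Lamc3. With both RFP KO-HFD 1 and WT-HFD 2 left out, Itga2b was at 1.24, Itga3 at 0.59, Itga8 at -0.18, Itgav at -0.59, Lama5 at 0.087, Lamb2 at 0.045, Lamb3 at 0.10 and Lamc3 at 0.67. Apart from the left-out libraries themselves, the cause was not tested.

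The labels number the mice 1 to 3 in both groups, but nothing says that a number marks a shared litter or day. The deviations of same-numbered libraries correlated at 0.029, 0.023 and 0.052, and each library correlated best with its own number. The other pairs lay between -0.036 and -0.0069. All of these values were small, and they cannot tell whether a number marks a shared litter or day. With the replicate number as a block, 1 member had an unadjusted p under 0.05, and the share over all genes at that level was not counted. The medians were then 0.097 (leukocyte integrins), -1.01 (matrix-binding integrins) and -1.91 (laminin chains). The library labelled RFP KO-HFD 1 had the fewest counts, so low members are measured least precisely in it.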

Other observations

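Genes whose names resemble integrin subunits were not members. Itgb1bp1, a regulator that binds the tail of β1, was at 1.21, 92.5 and 134 CPM in RFP KO-HFD and at 71.8, 60.9 and 68.9 CPM in WT-HFD, low only in the library labelled RFP KO-HFD 1. Itgbl1, a secreted protein with integrin β-like repeats, was at 0, 7.83 and 1.43 CPM in RFP KO-HFD and at 18.1, 10.99 and 15.8 CPM in WT-HFD, without overlap (log2 fold change -2.25 ± 1.44, adjusted p = 0.853).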
